A study of Mus musculus with 4 samples.

Results

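Genes of the ubiquitin system were followed through a ChIP-seq study of Nrf2 binding in mouse esophagus. The members were all genes of the deposited table whose symbol begins with one of 15 prefixes (Ube, Uba, Ubr, Usp, Fbxo, Fbxl, Fbxw, Trim, Rnf, Cul, Klhl, Herc, Asb, Otud or Ubxn), 53 of the 1940 genes listed. They were chosen by name and not by signal, although every gene of the table is there because a peak was called in or near it. ChIP-seq sequences the DNA that an antibody pulls down with its protein. An antibody against Nrf2 (Santa Cruz, sc-13032 per the labels) was used on 3 genotypes of C57BL/6 mice: wild-type, Nrf2KO, which lacks the target of the antibody, and Keap1KO, which lacks the adaptor that sends Nrf2 to degradation. Each genotype had 1 library, and a library of pooled input DNA was not used here. The knockout alleles, any restriction of a deletion to some cells, the age and the number of mice were not given in the sources used here.

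Ubiquitin is attached to proteins by a relay. An activating enzyme (E1) charges a conjugating enzyme (E2), and a ligase (E3) brings the charged E2 to the substrate. Ligases of the RING, TRIM and HECT kinds bind the substrate themselves, whereas cullin ligases do so through exchangeable adaptors with an F-box, a BTB-Kelch or a SOCS box domain. Deubiquitinases remove the tag, and cofactors of the ATPase VCP deliver tagged proteins for unfolding. Keap1 is itself a BTB-Kelch adaptor of a cullin ligase, and its substrate is Nrf2, which activates genes of the response to oxidative stress by binding antioxidant response elements together with a small Maf protein.

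The values are peak heights, a deposited signal with no stated unit. Depth per library is unknown, so a difference in library size between genotypes was not tested. Neighbouring genes can list the same peak, and heights were therefore taken per locus, meaning 1 or more peaks listed under exactly the same genes. The 53 genes had 55 loci among 1460 in all, on 17 chromosomes. Of these loci, 36 were listed under the member gene only and 19 under other genes too. A single library stood for each genotype, so genotypes could not be tested against each other. Folds and log2 ratios were computed after adding 1 to each height, so that ratios between small heights come out too small, and a 2-fold rule is used to describe size only.

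Since Nrf2 binds DNA, the promoter sequences of members with a peak at the start are shown before the heights. RefSeq promoter windows (GRCm38.p6, 250 bases before to 50 after the start) were found for 39 of the 53 genes, and 4 windows held the listed position of a peak of that gene, those of Klhl21, Ube2v1, Fbxo9 and Rnf141. The core of the antioxidant response element, TGACNNNGC on either strand, lay in 1 of the 4, that of Ube2v1. It lay in 5 of 49 windows of member genes (10.2%) and in 12.4% of all 32851 windows. The Klhl21 window, the one of the 4 with the highest Keap1KO height, has no such match and holds TGACTCA, a heptamer that forms part of some antioxidant response elements and of AP-1 sites. That heptamer was searched after the sequences were seen and lay in 4 of the 49 windows of member genes (8.16%) and in 5.2% of all windows. In the sequences below, which are the 250 bases before the start, capitals mark these matches. The Klhl21 match covers bases 143 to 149 and its peak is listed 11 bases farther on. The Ube2v1 match, TGACCGTGC on the opposite strand, covers bases 30 to 38, 14 bases from the listed peak position. For Usp10, whose peak is listed 135 bases from a match to both motifs (TGACTCAGC on the opposite strand, at the end of its window), the last 30 bases of the window are shown.
Klhl21, chr4:152008641-152008890, plus strand: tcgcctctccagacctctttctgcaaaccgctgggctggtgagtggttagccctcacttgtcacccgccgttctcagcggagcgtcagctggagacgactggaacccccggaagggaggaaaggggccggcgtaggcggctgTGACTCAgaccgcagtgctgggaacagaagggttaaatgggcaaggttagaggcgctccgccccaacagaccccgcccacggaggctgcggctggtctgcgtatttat
Ube2v1, chr2:167632006-167632255, minus strand: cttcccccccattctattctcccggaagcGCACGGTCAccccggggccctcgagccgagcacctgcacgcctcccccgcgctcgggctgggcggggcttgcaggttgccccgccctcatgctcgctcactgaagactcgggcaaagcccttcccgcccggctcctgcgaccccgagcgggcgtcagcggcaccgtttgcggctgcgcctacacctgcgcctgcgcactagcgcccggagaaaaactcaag
Usp10, chr8:119910380-119910409, plus strand: ggaggcagggctccgttacccGCTGAGTCA
A match to a motif describes these letters only, and the width of the peaks is not listed.

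Heights at the 55 loci were low in wild-type and Nrf2KO and high in Keap1KO. Wild-type had a median of 5 (quartiles 3.25 and 8), Nrf2KO of 4 (3 and 8) and Keap1KO of 20 (16 and 26). Over all 1460 loci the medians were 5, 4.33 and 18. Keap1KO was the highest of the 3 libraries at 54 of the 55 loci, and at 1436 of all 1460. A peak was called in Keap1KO at all 55, as at 99.2% of all loci, so a Keap1KO call was close to a condition for being listed. A peak was called in wild-type at 4 of the 55 (3.77% of all loci), those of Trim16, Trim47, Asb2 and Usp3, and in Nrf2KO at none of the 1460.

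The excess of Keap1KO over wild-type reached 2-fold at 50 of the 55 loci, where the share over all loci was 88%, and a deficit of that size was met at 0 (0.274% of all). By any amount, Keap1KO was the higher at 54 (98.8% of all loci). The median log2 ratio was 2.06 (95% order-statistic interval over loci 1.70 to 2.19) beside 1.74 over all loci. Against Nrf2KO, Keap1KO was at least 2-fold higher at 49 (85.3% of all loci), at least 2-fold lower at 0 (0.137%) and higher by any amount at 55 (99%), with a median log2 ratio of 2.12 (1.46 to 2.37) beside 1.91. At 45 of the 55 it was at least 2-fold above both, 81.8% against 79.5% of all loci. These shares are close to the background and no result about the members follows from them.

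**Figure D1:**
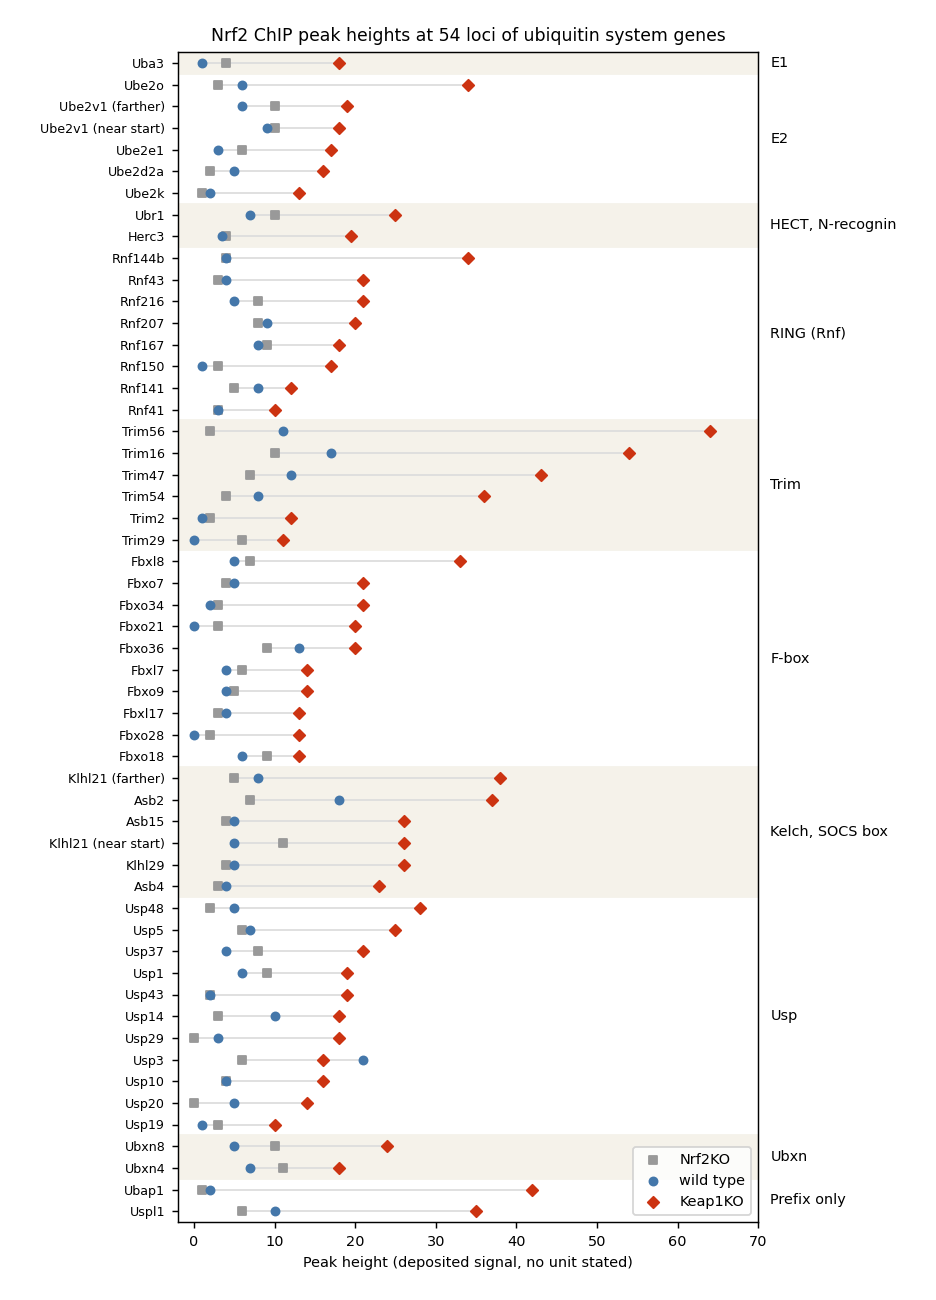
Peak height (x axis, deposited signal) in Nrf2KO (squares), wild type (circles) and Keap1KO (diamonds) at 54 member loci, grouped by role with the grey line spanning the 3 libraries. Keap1KO lies to the right of both other libraries in every line except that of Usp3, and Trim56 and Trim16 reach 64 and 54.

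At the top of the relay, Uba3, the catalytic subunit of the E1 for the ubiquitin-like protein NEDD8, which activates cullins, had heights of 1, 4 and 18 at 1606 bp upstream of its start (chromosome 6, position 97207248). Sets of heights are given here and from here on for wild-type first, then Nrf2KO, then Keap1KO. At Uba3, a locus also listed under Arl6ip5, the signal was low in both other libraries. Keap1KO was 3.8-fold above Nrf2KO and 9.5-fold above wild-type, and the latter depends on the 1 added to a height of 1.

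Of the E2 enzymes, 5 genes had 6 loci, with Keap1KO heights from 13 to 34. Ube2o, a large enzyme that acts as E2 and E3 together, had 6, 3 and 34 at a locus 8103 bp into the gene (chromosome 11, position 116573344). This locus stood apart from the other E2 loci, which had at most 19 in Keap1KO. Ube2v1, a catalytically inactive E2 variant that helps build non-degradative chains, had a locus on each side of the 1 kb limit, with 9, 10 and 18 at 235 bp upstream of its start and 6, 10 and 19 at 2427 bp. Keap1KO was less than 2-fold above Nrf2KO at both, 1.73-fold and 1.82-fold, and the antioxidant element core shown above lies at the nearer one. Ube2d2a, which works with many RING ligases, had 5, 2 and 16, Ube2e1 had 3, 6 and 17, and Ube2k, an E2 of the degradative chain type, had 2, 1 and 13. The 2-fold mark was passed by Keap1KO over wild-type at 5 of the 6 loci (88% of all loci) and over Nrf2KO at 4 (85.3%).

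The TRIM genes had the tallest set of loci among the families with at least 6. Their median Keap1KO height was 39.5, against 20 for all 55 loci, and 4 of the 6 had at least 30, a height met by 12 of all 55 member loci and by 13% of all 1460. Trim56, a ligase of innate immune signalling, had 11, 2 and 64 at a locus 8118 bp beyond its end that is listed under no other gene (chromosome 5, position 137103168). Keap1KO was 21.7-fold and wild-type 4.00-fold above Nrf2KO there. Trim16, a TRIM protein without a RING domain, had 17, 10 and 54 at a locus 19 bp into the gene (chromosome 11, position 62820272), with a call in wild-type and in Keap1KO. Its Nrf2KO height was among the highest of the members, and the folds over Nrf2KO were 1.64 for wild-type and 5 for Keap1KO.

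Trim47 was also called in both libraries, with 12, 7 and 43 at 1206 bp beyond its end (chromosome 11, position 116104544). Trim54, a TRIM protein of striated muscle, had 8, 4 and 36 at 572 bp into the gene. At these loci the order of the libraries was the same, with Nrf2KO lowest and Keap1KO highest. The other TRIM loci were low, with 1, 2 and 12 at Trim2 and 0, 6 and 11 at Trim29, an epithelial TRIM protein without a RING domain. Wild-type is listed at 0 at Trim29, so no fold over it is given, and Keap1KO was 1.71-fold above Nrf2KO (chromosome 9, position 43312928, 2165 bp into the gene).

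The 8 RING genes named Rnf had a median Keap1KO height of 19 and no call in wild-type. Rnf144b was the tallest with 4, 4 and 34, at 122304 bp into the gene (chromosome 13, position 47245024). Wild-type and Nrf2KO did not differ there, and Keap1KO was 7-fold above both. Rnf43, which removes Wnt receptors from the cell surface, had 4, 3 and 21 at 63121 bp into the gene. Rnf216 had 5, 8 and 21, Rnf150 1, 3 and 17, and Rnf41, a ligase for an ErbB receptor, 3, 3 and 10. Rnf207 had 9, 8 and 20 at a locus 326 bp from the start of the ribosomal protein gene Rpl22, and Rnf167 had 8, 9 and 18 at a locus nearest the start of Pfn1. Rnf141, with 8, 5 and 12 at 29 bp into the gene (chromosome 7, position 110844352), had the smallest ratio of Keap1KO to wild-type among the Rnf genes, 1.44-fold.

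Of the HECT and N-recognin genes, Herc3 had 3.5, 4 and 19.5 as a mean over 2 peaks, and its deposited highest value places these at 29 and 10 in Keap1KO. Ubr1, which recognizes destabilizing amino-terminal residues, had 7, 10 and 25 at a locus 8 bp from the start of Ttbk2 and 9680 bp beyond its own end (chromosome 2, position 120850592).

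The substrate adaptors of cullin ligases made up 15 genes with 16 loci. The 10 F-box genes were mostly low, with medians of 4, 4.5 and 17, and Nrf2KO was above wild-type at 7 of their 10 loci, beside 35.8% of all loci and 25 of the 55 member loci, a difference that was not tested. Fbxl8 was the tallest with 5, 7 and 33, at a locus that lies 49 bp from the start of Nol3 and is also listed under Hsf4 (chromosome 8, position 105276496). Fbxo7, which takes part in mitophagy, had 5, 4 and 21, and Fbxo34 had 2, 3 and 21 (7.33-fold over wild-type). Wild-type is listed at 0 at Fbxo21 (3 in Nrf2KO, 20 in Keap1KO, chromosome 5, position 117967760) and at Fbxo28 (2 and 13, chromosome 1, position 182345440), both upstream of the gene. Fbxo36 had 13, 9 and 20 at 353 bp upstream of its start and 184 bp from that of the HECT ligase gene Trip12, and Keap1KO was 1.5-fold above wild-type. Fbxl7 had 4, 6 and 14, Fbxl17 had 4, 3 and 13, Fbxo9 had 4, 5 and 14, and Fbxo18, a DNA helicase with an F-box, had 6, 9 and 13. Fbxo18 had the smallest ratio of Keap1KO to Nrf2KO among the 55, 1.40-fold.

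At the 6 loci of the BTB-Kelch and SOCS box genes, Keap1KO heights per locus ran from 23 to 38. Keap1KO was at least 2-fold above both other libraries at all 6, as at 79.5% of all loci. Klhl21, an adaptor of cullin ligases in mitosis, had 2 loci that differed in Nrf2KO. At the start (91 bp upstream, chromosome 4, position 152008800, the window printed above) heights were 5, 11 and 26, and wild-type was at 0.5 of Nrf2KO. At 1541 bp into the gene, a locus also listed under Zbtb48, they were 8, 5 and 38, and wild-type was 1.5-fold above Nrf2KO. Klhl29 had 5, 4 and 26 as a mean over 2 peaks deep in the gene, which its deposited highest value places at 36 and 16 in Keap1KO. Asb2, which targets filamins for degradation, had 18, 7 and 37 with a call in wild-type, 6335 bp upstream of its start (chromosome 12, position 103362336). Wild-type was 2.38-fold above Nrf2KO at Asb2 and Keap1KO 2.00-fold above wild-type. Asb15 had 5, 4 and 26 at a locus 71 bp from the start of Ndufa5, and Asb4 had 4, 3 and 23.

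The deubiquitinases were represented by 11 Usp genes with 1 locus each. Their median heights were 5, 3 and 18. The excess of Keap1KO reached 2-fold over Nrf2KO at all 11 (85.3% of all loci) and over wild-type at 9 (88%). Usp1 was at exactly 2-fold over Nrf2KO. Usp3, which removes ubiquitin from histones, was the exception among all members. It had 21, 6 and 16 at 12 bp upstream of its start (chromosome 9, position 66592992), the highest wild-type height of the 55, with calls in wild-type and in Keap1KO. Keap1KO was lower than wild-type at this locus alone among the members, as it was at 15 of all 1460 loci, and its height was 0.773 of that in wild-type. Usp14, a deubiquitinase bound to the proteasome, had 10, 3 and 18 at 517 bp into the gene (chromosome 18, position 10029632), with wild-type 2.75-fold above Nrf2KO and Keap1KO 1.73-fold above wild-type.

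Usp48 had the tallest Keap1KO height of the Usp genes, with 5, 2 and 28 at 49395 bp into the gene (chromosome 4, position 137643584). Nrf2KO is listed at 0 at Usp20, where wild-type had 5 and Keap1KO 14 (chromosome 2, position 30985461), and at Usp29, with 3 and 18 (chromosome 7, position 6862832). These are the member loci with no height in Nrf2KO, and no fold over it is given. Usp5, which disassembles free ubiquitin chains, had 7, 6 and 25 at a locus 9323 bp beyond its end that is also listed under Spsb2 and the glycolytic gene Tpi1. Usp1, which acts on DNA repair proteins, had 6, 9 and 19, Usp10 had 4, 4 and 16, and Usp43 had 2, 2 and 19. Usp37 had 4, 8 and 21 at a locus 340 bp from the start of Rqcd1, and Usp19, anchored in the endoplasmic reticulum, had 1, 3 and 10.

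The VCP cofactor genes had 7, 11 and 18 at Ubxn4 (chromosome 1, position 128244501) and 5, 10 and 24 at Ubxn8 (chromosome 8, position 33642048), each within 1 kb of the start, where Nrf2KO was above wild-type at 47.6% of all loci. Ubap1 and Uspl1 share only a prefix with the families, since Ubap1 is a subunit of an endosomal sorting complex and Uspl1 an isopeptidase for SUMO. Ubap1 had 2, 1 and 42 at 19324 bp into the gene (chromosome 4, position 41368320), so that Keap1KO stood 14.3-fold above wild-type and 21.5-fold above Nrf2KO. Uspl1 had 10, 6 and 35 at 18672 bp into the gene (chromosome 5, position 149203232). Genes of the Cul, Fbxw and Otud prefixes and the ligases Ube3 and Ube4 had no row in the table. By RefSeq symbol, 53 of 441 protein-coding genes with these prefixes had a row (12%), against 7.67% of all protein-coding genes. This difference was not tested, and a row can rest on a peak shared with another gene or nearer to its start. The shares were 11 of 56 for Usp, 7 of 70 for Trim and 2 of 37 for Klhl. RefSeq calls Fbxo18 Fbh1 and names 4933422H20Rik Trim80, so these counts differ from the members by those genes.

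Wild-type and Nrf2KO were hardly apart as a whole at the members. The higher of the pair was wild-type at 26 loci (53.8% of all loci) and Nrf2KO at 25 (35.8%), and 4 were tied. The median log2 ratio was 0.00 (−0.42 to 0.32), beside 0.19 over all loci. Wild-type was at least 2-fold higher at 8 (18.8% of all loci) and at least 2-fold lower at 7 (8.29%). The 8 were Usp20, Usp29, Trim56, Usp3, Usp14, Asb2, Usp48 and Ube2d2a, the last 2 of them at exactly 2.00-fold. The 7 were Trim29, Fbxo21, Fbxo28, Uba3, Rnf150, Usp19 and the Klhl21 locus at the start. Rnf150, Usp19 and this Klhl21 locus were at exactly 2.00-fold. Apart from Klhl21, wild-type heights at these 7 were 0 or 1. With wild-type heights scaled so that their median equals that of Nrf2KO, the median log2 ratio of the members was −0.15 beside 0.01 over all loci, with 10.9% of the member loci 2-fold higher and 16.4% lower, and with 5 added to each height in place of 1, 5.45% of the member loci were 2-fold higher and 1.82% lower. The scaling, by 0.867, lowers wild-type at every locus above 0. Shares over all loci at these settings are not given here, so nothing particular to the members follows.

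**Figure D2:**
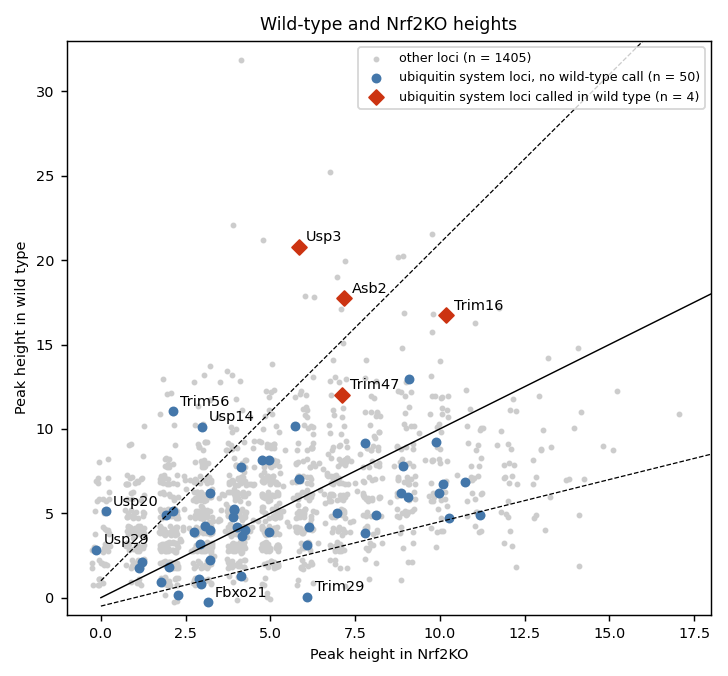
Peak height in wild type (y axis) against Nrf2KO (x axis), with small random shifts to part equal values; grey points are other loci, blue points the member loci without a wild-type call that are shown and red diamonds the 4 with one. The solid line marks equal heights and the dashed lines 2-fold after adding 1; Usp3 and Asb2 lie above the upper dashed line, Trim16 and Trim47 between the lines, and Trim29 and Fbxo21 are at 0 in wild type.

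Position went with the heights in wild-type and Nrf2KO. Measured from the start of the member gene, 17 loci lay within 1 kb, 10 lay 1 to 20 kb inside the gene, 12 lay more than 20 kb inside and 16 lay outside it. Ube2k, at 1000 bp, was the last within the limit, and the nearest outside it was Klhl21 at 1541 bp. A further 5 lay within 1 kb of the start of another listed gene only, among them those of Fbxl8, Ubr1, Usp37 and Rnf207. Counting the start of any listed gene, 22 of 55 loci (40%) were within 1 kb, against 31.1% of all loci. For 10 of the 55 the nearest listed start belonged to a gene outside the prefixes, so the listing of these loci under a ubiquitin system gene is uncertain.

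At the 22 loci near any start the median heights were 6.5, 8 and 19.5, against 6.58, 7 and 17 at the 454 such loci of the whole table. At the 33 farther loci they were 4, 3 and 20, against 4.5, 4 and 18. Wild-type and Nrf2KO were thus both higher near starts and Keap1KO was not, both for the members and for all loci. Of the 8 member loci with at least 10 in Nrf2KO, 7 were within 1 kb of a listed start, the exception being the farther Ube2v1 locus. The same count over all loci is not given here. Between Keap1KO and Nrf2KO the log2 ratio had a median of 1.26 near starts and 2.36 away from them (1.29 and 2.17 over all loci). All 5 member loci with less than a 2-fold excess of Keap1KO over wild-type, those of Usp3, Rnf141, Fbxo36, Usp14 and the nearer one of Ube2v1, were within 1 kb of the member gene's own start. In the whole table the excess reached 2-fold at 76.2% of loci within 1 kb of a listed start and at 93.3% of those farther away, so this leaning is not particular to the members. Of the 12 tallest loci, with at least 30 in Keap1KO, 2 were within 1 kb of their own start (Trim16 and Trim54), 2 within 1 kb of another gene's start only (Fbxl8 among them) and 8 farther from every listed start. That far from every start lay 60% of the member loci and 68.9% of all loci, so no result about tall loci follows from this split.

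**Figure D3:**
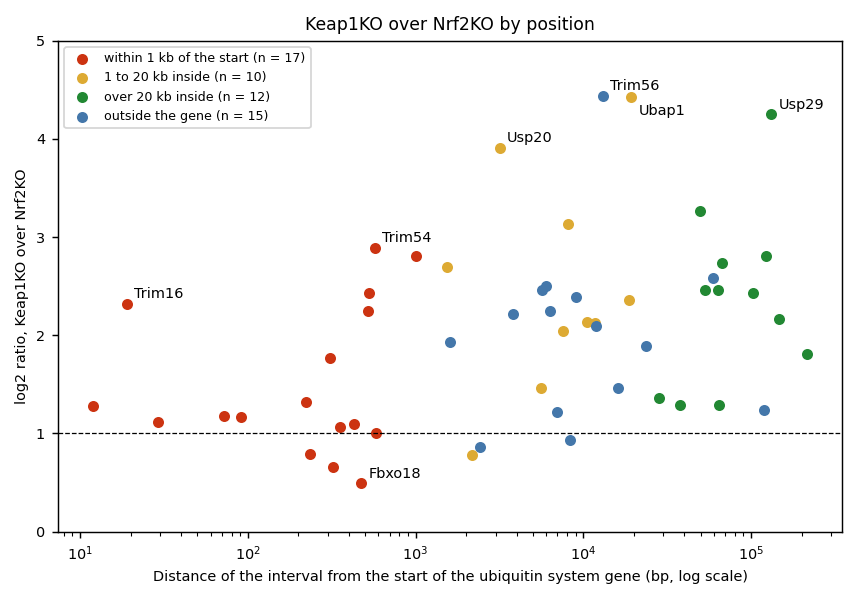
Ratio of Keap1KO to Nrf2KO (y axis, log2 after adding 1) against the distance of the peak from the start of the member gene (x axis, bp, log scale) for 54 member loci, coloured by position, with the dashed line at 2-fold. Fbxo18 is the lowest, and Trim56, Ubap1, Usp29 and Usp20, all more than 1 kb from the start, are the highest. Usp29 and Usp20 have no height in Nrf2KO, so their places depend on the 1 added to each height. With 5 added, Usp29 and Usp20 lie below Ube2o (log2 ratio 2.29), while Trim56 (3.3) and Ubap1 (2.97) stay above it.

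**Figure D4:**
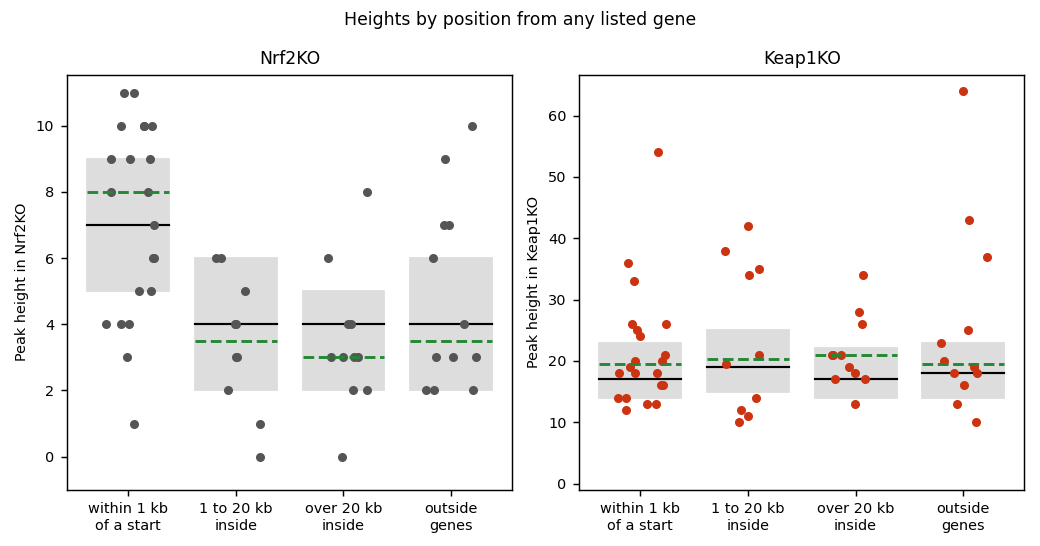
Peak height in Nrf2KO (left) and Keap1KO (right) by position from any listed gene: points are 54 member loci, green dashed lines the medians over all 55, grey boxes the quartiles and black lines the medians of all loci. In Nrf2KO the median of the members is 8 within 1 kb of a start and 3 to 3.5 elsewhere, and in Keap1KO the 4 medians lie between 19.5 and 21.

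The ubiquitin system holds many genes outside the prefixes. A list of such genes (Keap1 and Vcp among them) matched 208 RefSeq protein-coding genes, of which 22 (10.6%) had a row, with 22 loci. Keap1KO passed 2-fold over wild-type at 16 of these and over Nrf2KO at 16, 72.7% in each case, beside 88% and 85.3% of all loci. The median log2 ratios of the 22 were 1.49 and 1.43, beside 1.74 and 1.91 over all loci and 2.06 and 2.12 for the 55 member loci. The Trip12 locus is in both sets, since Fbxo36 is listed there too. Many of the 22 lay within 1 kb of the start of their gene. Among all loci that near a listed start, the shares were 76.2% and 66.1% and the medians 1.42 and 1.29. The part of position in these values was not tested. The tallest were Cdc34, the E2 of cullin ligases with F-box adaptors, with 13, 6 and 44, and Vcp with 10, 5 and 44. The Cdc34 locus is also listed under Tpgs1 and the Vcp locus under Fancg. Dtx4, a Notch pathway ligase, had 3, 5 and 37 at a locus downstream of the gene, 37612 bp from its start and also listed under Mpeg1. Faf1, a VCP cofactor, had 14, 13 and 35, and Uchl1, a deubiquitinase, 6, 2 and 30. Mdm2, the ligase for p53, had 6.5, 4.5 and 19.5. Birc6, an inhibitor of apoptosis with E2 activity, had 4, 8 and 14, and Anapc13, a subunit of the anaphase-promoting complex, 5, 13 and 16, with Nrf2KO well above wild-type. The Ufl1 locus, near the start of the ligase gene for UFM1, had 16, 11 and 10 and was called in wild-type only.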

How the data were processed

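The deposited table has 1 row per gene. The submitters' processing notes name BWA, MACS2 2.1.0 and mm10, and parameters, depth and any scaling were not given in the sources used here. Its values are the authors' signal, an average peak height per gene and library, with flags for called intervals, per the file headers. In the 1681 genes with 1 active region, 100% of heights were exactly whole, with no tolerance.

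The 1727 intervals were placed from each gene's start, strand and listed distance, merged to the stated number of active regions (1684, largest distance merged 704 bp) and grouped into 1460 loci. Heights were solved by least squares (largest residual 0.00186, Python 3.11.15, numpy 2.4.6, scipy 1.17.1). The rebuilding was tested on simulated heights. Means of loci were set to the nearest multiple allowed by their number of regions where within 0.02.

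Every member gene was matched by GeneID to RefSeq (GRCm38.p6), and 46 of the 53 had both ends within 1 kb of it. All members may be named. A position, on the chromosome or from a gene, is given for the tallest locus of most families. The same holds for the largest and lowest ratios of Keap1KO to wild-type and the largest of wild-type to Nrf2KO. It also holds for the highest Nrf2KO heights that are reported and the wild-type calls. Members and lists were chosen with earlier results of these data known. Intervals of medians are 95% order-statistic intervals over loci, which are not replicates. No test between genotypes was run. Alternatives were other pseudocounts, filters on height and position, values per gene, a narrower membership and scaled wild-type heights. The alternatives without loci called in wild-type and without loci near another gene's start only were added after seeing the data. The input library was not analysed here. The values of 1 member locus are not reported here, and it stays in the counts and medians.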

Additional observations from a re-analysis of the deposited data

How the results depend on the processing

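Unknown depth limits every ratio between libraries, as does the lack of replicates. No paired analysis was possible because a single library stood for each genotype. Among 535 values recomputed under an alternative, the median log2 ratio of wild-type over Nrf2KO, 0.00, lay between −0.15 and 0.26, and that ratio at Rnf207 changed sign, from 0.15 to −0.03 with wild-type scaled. Of these values, 81 of the main values stayed within their interval (or, for counts, within 1.5 times) and 14 did not, and of the single loci 378 moved by less than 1.5-fold and 62 by more. A pseudocount of 5, which shrinks ratios by construction, lowered the median log2 excess of Keap1KO to 1.46 against wild-type and 1.45 against Nrf2KO, with 78.2% and 69.1% of member loci at least 2-fold higher, and 5.45% higher and 1.82% lower for wild-type over Nrf2KO. Loci within 1 kb of the member gene's start gave 1.58 and 1.18 for the Keap1KO comparisons and 70.6% at least 2-fold above wild-type, and loci farther away 100%. The filter on mean height left 2.94% lower for wild-type over Nrf2KO. Scaling wild-type gave 2.23 for Keap1KO over wild-type. Counting only calls 18 or more high left 2 in wild-type, and with any height of at least 12 counted, Nrf2KO had 1. Where a value moved otherwise, the cause was not tested.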
